A study of Pongo abelii with 8 samples.

Results

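Integrins and laminins are the cell surface receptors and the basement membrane proteins through which cells hold on to their matrix, and their transcripts were followed here in the orangutan iPSCs and in the skin fibroblasts from which these were made. The genes were chosen by name, with earlier results of these data known. A probe set was taken when the platform annotation gave it exactly 1 symbol and this symbol was that of an integrin α or β chain or of a laminin α, β or γ chain. This left 68 of 22277 probe sets and 33 of 11963 genes, of which 16 encode integrin α chains, 7 integrin β chains and 10 laminin chains. For 18 genes there was 1 probe set and for 15 there were several. For totals, each gene was taken at the probe set with the highest mean over the 8 arrays.

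The 8 cultures came from 2 Sumatran orangutans labelled as healthy controls, KB10460 (a female aged 43 years) and KB10973 (a male aged 29 years), with 1 dermal fibroblast culture and 3 iPSC colonies from each. All iPSC colonies were made with pMX retroviruses carrying human cDNA for c-MYC, KLF4, OCT4 and SOX2, and the fibroblasts were not transduced. Colonies were picked on a layer of mouse embryonic fibroblasts and lifted with collagenase, whereas the fibroblasts were lifted with trypsin, so cell type, feeder layer and harvest cannot be told apart. The sources differ on the medium of the fibroblasts, which was DMEM with fetal bovine serum by the growth protocol and DMEM:F12 with knockout serum replacement by the design text. Since 3 colonies share each animal, the p-values measure the spread between cultures of 2 animals only. RNA of the mouse feeder cells could be present in the iPSC samples, and its part in the values was not tested. The arrays were made for human transcripts, and the values are log2 expression values normalized by RMA, so that a difference of 1 is a 2-fold change. The median of an array lay between 3.74 and 3.82, and genes with a log2 value under 5 in all 8 arrays are called genes of low signal below. A low signal may come from little transcript or from mismatches between human probes and orangutan transcripts, and the levels of different genes are not compared.

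The labels were checked against markers of the cell types. The 5 measured pluripotency genes of the list used here (LIN28A, L1TD1, DNMT3B, NANOG and SOX2, the last also carried by a vector) were all higher in the iPSCs. Of 10 fibroblast genes, 9 were lower in the iPSCs and 1, THY1, was higher. The mean log2 value of the fibroblast list was 9.54 and 9.92 in the fibroblast arrays and 5.08 to 5.54 in the iPSC arrays. Of 5 keratinocyte genes, 4 were of low signal and SFN was higher in the iPSCs. The leukocyte list had 6 of 7 genes at low signal, PTPRC among them, and the other, CD14, was lower in the iPSCs (log2 fold change -3.33). Of 6 endothelial genes, KDR and TEK were higher in the iPSCs and PECAM1 was lower. Of 6 endoderm genes, GATA6 and AFP were higher in the iPSCs. In RNA from whole cultures, fewer cells of a type and less RNA per cell cannot be told apart.

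An integrin is a pair of 1 α and 1 β chain that spans the cell membrane. The α chain largely sets which matrix protein is bound, and the tail of the β chain is tied to actin by talin and kindlin. Laminins are trimers of 1 α, 1 β and 1 γ chain that form the sheet of a basement membrane. Human pluripotent cells are known to hold on to laminins mainly by integrin α6β1, and skin fibroblasts to fibronectin and collagen by α5β1, αV and the collagen-binding integrins.

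In the iPSCs, a single gene of the 33 was higher than in the fibroblasts, 11 were lower and 21 were not called. ITGA6 was the higher one, by 12.5-fold. The collagen receptor gene ITGA2 and the RGD-binding receptor gene ITGA8 were lower by 12.1-fold and 9.37-fold, the shared chain ITGB1 by 3.35-fold, and the fibronectin receptor gene ITGA5 by 2.36-fold. Smaller falls were found for ITGAV, ITGB5, ITGB3 and ITGB2 and for the laminin genes LAMA2, LAMB1 and LAMB2. The 6 iPSC and 2 fibroblast arrays were compared in limma over all probe sets (two-sided), and a call needed a change above 1.5-fold together with a p under 0.05 after Benjamini-Hochberg adjustment. Among all genes by the same choice of probe sets, 11.5% were called lower and 15.2% were called higher, against 33.3% and 3.03% of the integrin and laminin genes. All 6 iPSC arrays lay below both fibroblast arrays in 15 of the 33 genes (19.7% of all genes) and above both in 1 (23.6% of all genes). The median log2 fold change was -0.21 over the 33 genes and 0.00 over all genes. Without the KB10460 fibroblast array 7 genes were called lower and 2 higher, and at a threshold of 2-fold the iPSCs had 4 genes lower. Median centring of the arrays left 7 lower. Of the 33 genes, 21 (63.6%, against 54.2% of all genes) were of low signal, among them 2 of those called lower (ITGB2 and LAMB2).

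**Figure D1:**
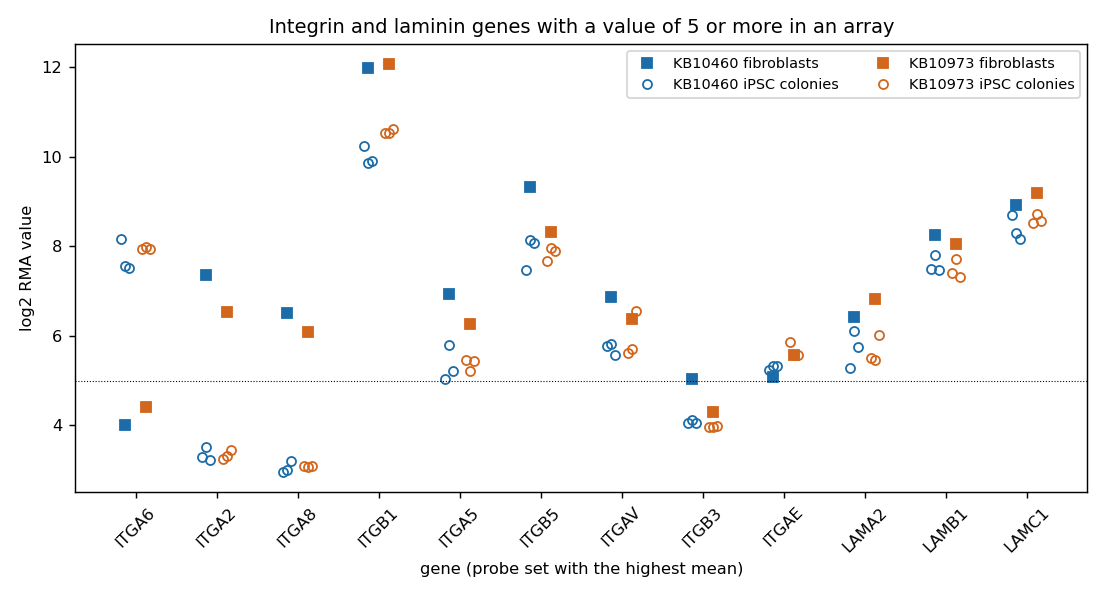
Log2 RMA values (vertical axis) of the 12 integrin and laminin genes with a value of 5 or more in an array (horizontal axis), where squares are fibroblast cultures, open circles are iPSC colonies, colours are donors and the dotted line lies at 5. ITGA6 is the gene whose circles lie above both squares, and the circles of ITGA2 and ITGA8 lie between 2.96 and 3.51.

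The laminin-binding α chains are encoded by ITGA3, ITGA6 and ITGA7, and ITGA6 alone of them was called. ITGA6 pairs with ITGB1 or ITGB4, and is a surface marker of many stem cells. It had a log2 value of 4.01 in the KB10460 fibroblasts and 4.40 in the KB10973 fibroblasts, against a lowest, median and highest value of 7.52, 7.95 and 8.16 in the iPSC colonies. The groups were over 3 log2 units apart and did not overlap. The log2 fold change was 3.65 (standard error, SE, 0.18, limma adjusted p = 8.9e-07). The other probe set of ITGA6 had values of 3.35 and 3.45 in the fibroblasts and 4.58 to 5.87 in the iPSCs, and was called higher too (log2 fold change 1.71, SE 0.30, limma adjusted p = 0.0022). KB10460 colony 1 was the highest of the 6 colonies at both probe sets. ITGA3, the α chain of a receptor for epithelial laminins, was of low signal, with 3.96 and 3.73 in the fibroblasts and 3.47, 3.87 and 4.04 as the lowest, median and highest iPSC values. These ranges overlap, and the 95% interval of its log2 fold change ran from -0.39 to 0.33. ITGA7, best known from muscle, was of low signal at both probe sets. The one with the lower mean had overlapping arrays and was not called (log2 fold change 0.09, limma adjusted p = 0.71). At the one with the highest mean, ITGA7 was at 4.46 and 4.02 in the fibroblasts and 4.40 to 4.86 in the iPSCs. There the log2 fold change was 0.41 (limma adjusted p = 0.067), and it was not called either. Without the KB10460 fibroblasts ITGA7 was the second gene called higher (log2 fold change 0.63).

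The α chains that bind the RGD motif of fibronectin and vitronectin were lower in the iPSCs in 3 of 4 genes. ITGA8, which pairs with ITGB1 and binds nephronectin and fibronectin, was at 6.50 and 6.08 in the fibroblasts and at 2.96, 3.07 and 3.19 (lowest, median and highest) in the iPSCs. All colonies lay in this narrow range well under both fibroblast cultures. The log2 fold change was -3.23 (SE 0.11, limma adjusted p = 7.8e-08), and a fold change may be understated where values lie near the lower end of the scale. ITGA5, the α chain of the main fibronectin receptor, was at 6.94 and 6.26 in the fibroblasts and at 5.04, 5.32 and 5.80 in the iPSCs. KB10460 colony 2 was the highest colony and still lay below both fibroblast cultures. ITGA5 fell by 1.24 on the log2 scale (SE 0.22, limma adjusted p = 0.0022).

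ITGAV, the α chain shared by the vitronectin receptors, was the only gene of those called whose arrays overlapped between the cell types. Its log2 values were 6.87 and 6.38 in the fibroblasts and 5.58, 5.74 and 6.55 in the iPSCs, with KB10973 colony 3 above the KB10973 fibroblasts. The log2 fold change was -0.79 (SE 0.25, limma adjusted p = 0.040). The call ended without the KB10460 fibroblasts (log2 fold change -0.55, adjusted p = 0.31), without any 1 of the colonies other than KB10973 colony 3 (adjusted p between 0.067 and 0.073) and with the donor as a block (adjusted p = 0.051). ITGA2B, which encodes the platelet fibrinogen receptor chain, was of low signal with overlapping groups at 3 of its 4 probe sets and was not called at any.

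Of the collagen-binding α chains, ITGA2 was the one with a signal in the fibroblasts. It encodes the α chain of integrin α2β1, a receptor for fibrillar collagens. Its log2 value was 7.35 in the KB10460 and 6.54 in the KB10973 fibroblasts, and 3.23, 3.30 and 3.51 (lowest, median and highest) in the iPSCs. The fibroblast cultures differed from each other by far less than either did from the colonies. ITGA2 had a log2 fold change of -3.60 (SE 0.18, limma adjusted p = 9.1e-07). ITGA1, which encodes the chain that prefers the collagen of basement membranes, and ITGA10, known from cartilage, were of low signal in both cell types, with log2 fold changes of -0.25 and -0.24 that were not called. In the RefSeq gene order of the orangutan assembly NHGRI_mPonAbe1-v2.0, ITGA1 and ITGA2 lie next to each other with 1 coding gene between them. The change at ITGA2 thus had no counterpart that was called at ITGA1.

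The remaining α chains gave no calls. ITGA4, whose product binds fibronectin and VCAM1, was of low signal at all its probe sets. At the one with the highest mean it was at 3.50 and 3.45 in the fibroblasts and 2.66 to 3.10 in the iPSCs. The log2 fold change there was -0.54 (limma adjusted p = 0.0082), which stayed under the 1.5-fold threshold. Its other probe sets had overlapping arrays, with log2 fold changes of -0.07 and -0.19 (limma adjusted p = 0.58 and 0.23). ITGA9, a receptor chain for tenascin, was of low signal with overlapping arrays. ITGAE, known from lymphocytes within epithelia as a receptor for E-cadherin, was the only gene of the leukocyte α chains with a value over 5. It stood at 5.08 and 5.57 in the fibroblasts and at 5.25 to 5.87 in the iPSCs (log2 fold change 0.16, 95% interval -0.25 to 0.57). ITGAL, ITGAM and ITGAX, the α chains of the leukocyte β2 integrins, were of low signal in all arrays, with log2 fold changes between -0.12 and -0.04.

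**Figure D2:**
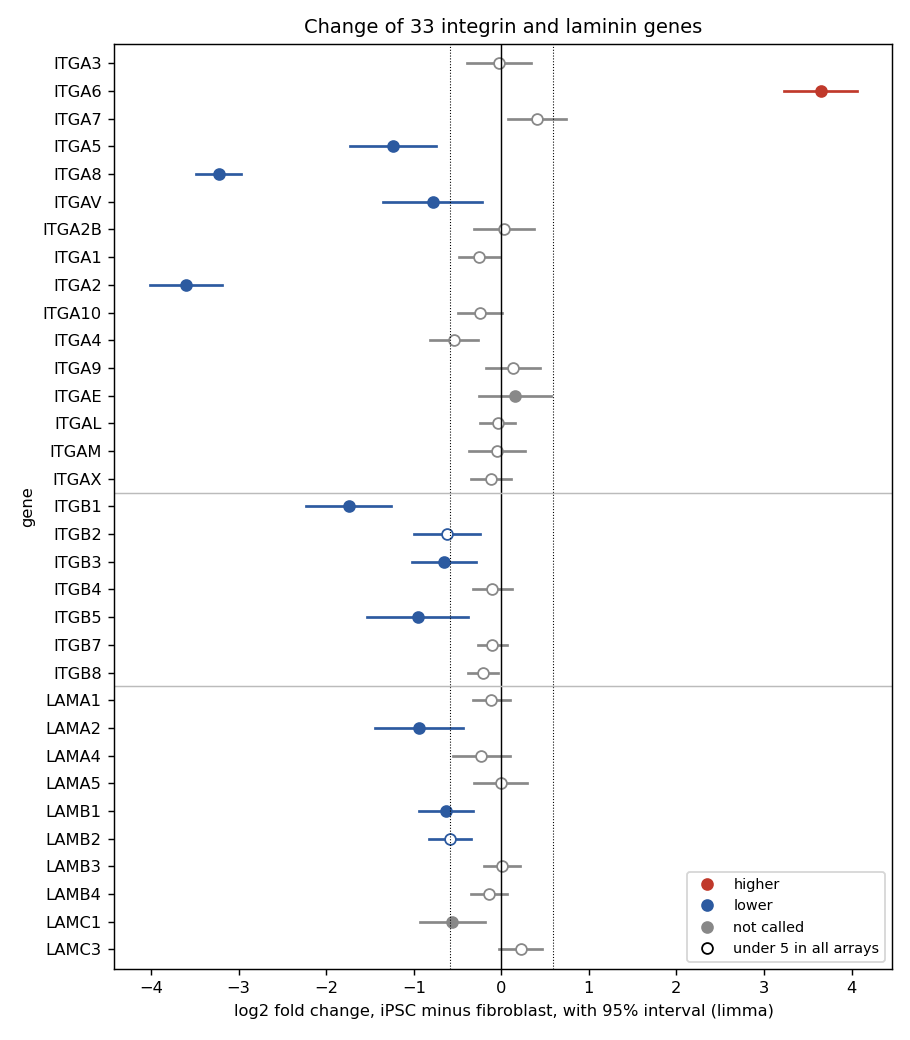
Log2 fold change of the 33 genes between iPSCs and fibroblasts (horizontal axis, points with 95% intervals from limma), in the order integrin α chains, integrin β chains and laminins (vertical axis), with dotted lines at a 1.5-fold change. Filled points reach a log2 value of 5 in an array and open points do not. ITGA6 stands alone at the right, and ITGA2 and ITGA8 lie farthest to the left.

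Of 7 integrin β chains, 4 were lower in the iPSCs (57.1%, against 11.5% of all genes) and none was higher. All 7 had a negative log2 fold change, as had 6058 of all 11963 genes. Of the 7, 4 were of low signal. ITGB1, the partner of most α chains named above, had log2 values of 11.99 and 12.07 in the fibroblasts and of 9.87, 10.39 and 10.62 (lowest, median and highest) in the iPSCs. Its fibroblast values were close together, and no colony came within 1 log2 unit of them. The log2 fold change was -1.74 (SE 0.21, limma adjusted p = 0.00024). The other 4 probe sets of ITGB1 had values of 2.73 to 3.75 in all arrays and were not called. When all 5 were averaged, the log2 fold change of ITGB1 was -0.47 and the call ended.

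ITGB5, which pairs with αV to bind vitronectin, was at 9.33 and 8.33 in the fibroblasts and at 7.47, 7.92 and 8.14 in the iPSCs. The KB10973 fibroblasts were thus only slightly above the highest colony. The log2 fold change was -0.96 (SE 0.26, limma adjusted p = 0.020), and it was -0.46 and not called without the KB10460 fibroblasts (adjusted p = 0.235). None of the other 3 probe sets of ITGB5 was called, with log2 fold changes from -0.43 to -0.15, and the mean of all 4 (-0.44) was not called either. ITGB3, the β chain of the platelet and osteoclast receptors, was at 5.04 and 4.29 in the fibroblasts and at 3.95, 4.01 and 4.11 in the iPSCs (log2 fold change -0.66, SE 0.16, limma adjusted p = 0.014). It too was not called without the KB10460 fibroblasts (log2 fold change -0.28, adjusted p = 0.088). None of the other 6 probe sets of ITGB3 was called, with log2 fold changes from -0.50 to -0.07.

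ITGB2, the β chain of leukocytes, had the same form at low signal, with 4.44 in the KB10460 fibroblasts, 3.68 in the KB10973 fibroblasts and 3.37 to 3.57 in the iPSCs. The KB10460 culture stood apart, and without it the log2 fold change of ITGB2 went from -0.62 to -0.24 and was not called. ITGB4, which encodes the β chain of the α6β4 receptor of hemidesmosomes, was of low signal at all 4 probe sets. The iPSC values of its highest probe set, 3.71 to 4.07, enclosed those of both fibroblast cultures, and the log2 fold change of -0.10 was not called. ITGB7 and ITGB8 were of low signal with log2 fold changes of -0.10 and -0.21, which were not called.

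Among the laminins, 3 of 10 genes were lower in the iPSCs, none was higher and 7 were not called. Of the α chains, which carry the site that integrins bind, LAMA2 was called. It encodes the α chain of laminin-211, the laminin of muscle and nerve sheaths. Its log2 value was 6.42 in the KB10460 fibroblasts, 6.82 in the KB10973 fibroblasts and 5.27, 5.63 and 6.10 (lowest, median and highest) in the iPSCs. All colonies were below both fibroblast cultures, KB10460 colony 2 by the least. The log2 fold change was -0.94 (SE 0.22, limma adjusted p = 0.011), and another probe set of LAMA2 gave -1.12 (adjusted p = 0.0089). The other 2 probe sets of LAMA2 were of low signal and not called (log2 fold changes -0.45 and -0.21). Without the KB10973 fibroblasts the call of LAMA2 ended (log2 fold change -0.74, adjusted p = 0.10).

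LAMA4, the α chain of laminins of vessels and mesenchyme, depended on the probe set. At the one with the highest mean it was at 3.86 and 3.79 in the fibroblasts and 3.42 to 3.99 in the iPSCs, and was not called. At another probe set the fibroblasts were at 4.14 and 4.92 and the iPSCs at 2.83 to 3.17, and LAMA4 was called lower there (log2 fold change -1.50, SE 0.17, limma adjusted p = 0.00017). The second probe set is of low signal as well, and its fibroblast values differ by 0.77 between the donors. LAMA5, the α chain of laminin-511, on which pluripotent cells are often grown, was of low signal. It was at 4.09 and 3.59 in the fibroblasts and at 3.67, 3.85 and 3.96 in the iPSCs, so that the colonies lay between the fibroblast cultures. The 95% interval of its log2 fold change ran from -0.31 to 0.29. LAMA1, the α chain of the early embryonic laminin, was at 3.35 and 3.17 in the fibroblasts and 2.96, 3.17 and 3.23 in the iPSCs, with a 95% interval from -0.33 to 0.10. For these low signals a difference was not detectable on these arrays, which does not show that the transcripts were absent.

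LAMB1 and LAMC1 encode the β and γ chains that most laminin trimers share, and both kept a clear signal in the iPSCs. LAMB1 was at 8.26 and 8.06 in the fibroblasts and at 7.32, 7.48 and 7.81 in the iPSCs. The groups did not overlap, but they lay close together. LAMB1 fell by 0.63 on the log2 scale (SE 0.14, limma adjusted p = 0.0070), and its other probe set fell by 0.68 (adjusted p = 0.0073). Without the KB10460 fibroblasts the log2 fold change of LAMB1 was -0.53 and the call ended (adjusted p = 0.0745).

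LAMC1 was at 8.91 and 9.19 in the fibroblasts and at 8.16, 8.55 and 8.73 in the iPSCs. Its log2 fold change of -0.56 (SE 0.16, limma adjusted p = 0.029) was just under the 1.5-fold threshold of 0.58, so it is counted as not called. It passed that threshold without the KB10460 fibroblasts, without KB10460 colony 1 and without KB10973 colony 2. At the other LAMC1 probe set the fibroblasts were at 7.11 and 7.64 and the iPSCs at 5.41 to 6.19, which was called lower (log2 fold change -1.60, SE 0.23, limma adjusted p = 0.00068). LAMB2, the β chain of laminin-521 and of laminins at the neuromuscular junction, was of low signal with 4.43 and 4.67 in the fibroblasts and 3.79, 3.98 and 4.09 in the iPSCs. Its log2 fold change of -0.59 (SE 0.11, limma adjusted p = 0.0024) was just over the threshold and missed it without the KB10973 fibroblasts (-0.47), without KB10460 colony 1 (-0.57) and without KB10973 colony 2 (-0.56). LAMB3, LAMB4 and LAMC3, chains of epithelial and of less common laminins, were of low signal with log2 fold changes between -0.14 and 0.22, and none was called. LAMB4 is the direct neighbour of LAMB1 in the RefSeq gene order. ITGA11, ITGAD, ITGB6 and LAMA3 were not analysed here.

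**Figure D3:**
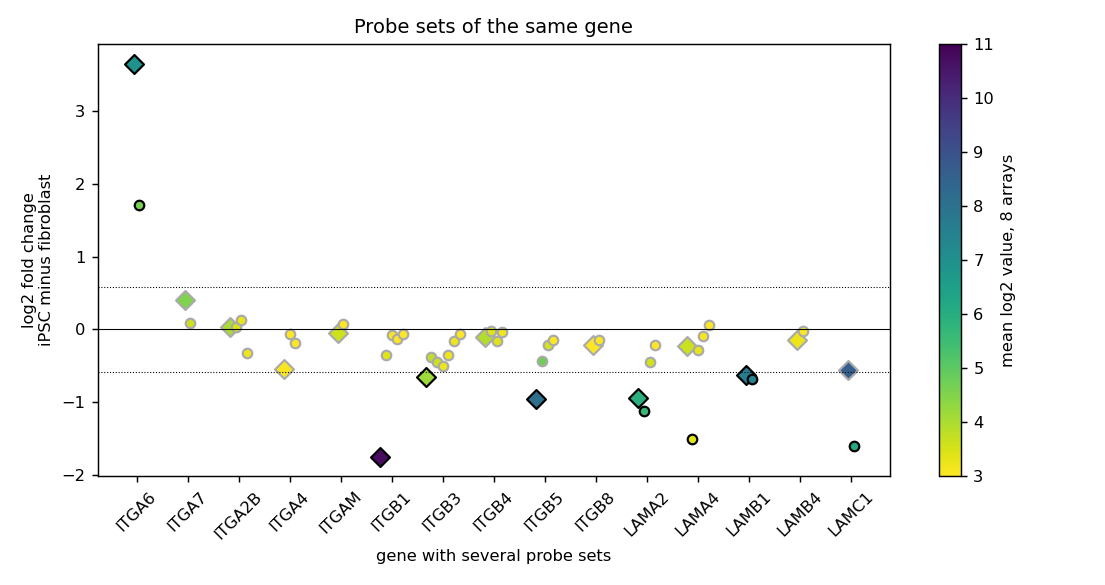
Log2 fold change between iPSCs and fibroblasts (vertical axis) of each probe set of the 15 genes with several probe sets (horizontal axis), coloured by the mean log2 value over the 8 arrays. Diamonds are the probe sets with the highest mean, dark outlines mark called probe sets and dotted lines a 1.5-fold change. ITGA6 is called higher at both probe sets, while LAMA4 and LAMC1 are called lower only at a probe set that is not the one with the highest mean.

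Over all 68 probe sets, 2 were called higher (12.2% of all probe sets), both of ITGA6, and 15 were called lower (9.6% of all probe sets). With each gene taken at its probe set of largest variance instead, 13 genes were lower (12.1% of all genes) and 1 was higher (15.8% of all genes), where LAMA4 and LAMC1 joined the 11 and all of these stayed. No gene had probe sets that were called in opposite directions.

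The changes were also set apart by donor, to ask whether the iPSCs of the 2 animals moved alike. ITGA6 was higher by 3.74 in the KB10460 colonies than in the fibroblasts of this donor, and by 3.56 in KB10973. ITGA2 had within-donor changes of -4.01 and -3.20, ITGA8 of -3.45 and -3.01, and ITGB1 of -1.98 and -1.51. These genes thus changed the same way in both donors. Each of the 8 integrin genes called lower had the larger fall in KB10460, and so had 60.5% of the 1380 genes called lower. These 8 falls rest on the same single fibroblast array of each donor and are not independent. For ITGA2, KB10973 minus KB10460 was -0.81 in the fibroblasts and -0.01 in the iPSCs, and for ITGB1 it was 0.08 and 0.55. Of the 3 laminin genes called lower, LAMB1 had the larger fall in KB10460, whereas LAMA2 (-0.71 against -1.16) and LAMB2 (-0.48 against -0.71) had it in KB10973.

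The difference of the change between donors was called by limma for 1 of the 33 genes, ITGB2 (3.42% of all genes were called), and 7 of the 33 had an unadjusted p under 0.05 (17.3% of all genes). This test assumes that the single fibroblast array of a donor varies like a colony. For ITGB2 the within-donor change was -1.06 in KB10460 and -0.18 in KB10973, and the difference was 0.88 (SE 0.15, limma adjusted p = 0.024). The call ended without KB10460 colony 2 or 3 or without any 1 of the KB10973 colonies (adjusted p between 0.052 and 0.065, difference 0.85 to 0.90). The difference for ITGB3 was 0.65 (adjusted p = 0.063), for ITGA2 0.81 (adjusted p = 0.097) and for ITGB5 0.94 (adjusted p = 0.27), and none of these was called. Of the leukocyte markers, PTPRC was at 3.33 and 3.26 in the fibroblasts and CD14 at 7.99 in KB10460 and 5.42 in KB10973. The mean of the 7 leukocyte markers was 4.20 in the KB10460 fibroblasts, 3.86 in the KB10973 fibroblasts and 3.33 to 3.55 in the iPSCs. CD14 alone carried this gap between the fibroblast cultures. Without CD14, left out after its values were seen, the mean of the other 6 markers was 3.56 in the KB10460 and 3.60 in the KB10973 fibroblasts and 3.31 to 3.58 in the iPSCs. The part of these values in the ITGB2 result was not tested.

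**Figure D4:**
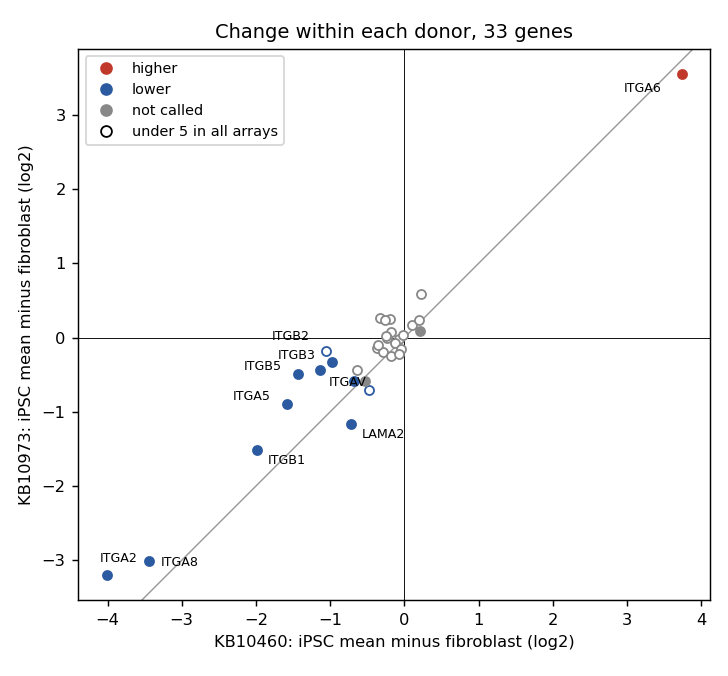
Mean of the 3 iPSC colonies minus the fibroblast culture of the same donor on the log2 scale, with KB10460 on the horizontal and KB10973 on the vertical axis, for the 33 genes. The grey line marks equal change. ITGA6, ITGA2, ITGA8 and ITGB1 lie far from 0 in both donors, and ITGB2 lies at -1.06 and -0.18.

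Among the iPSCs themselves the genes varied about as much as all genes did. The SD over the 6 colonies ran from 0.06 (ITGB7) to 0.36 (ITGAV) with a median of 0.15, against a median of 0.14 over all genes. Between the 3 KB10973 colonies and the 3 KB10460 colonies none of the 33 genes was called by limma (0.142% of all genes were), and 3 had an unadjusted p under 0.05 (11.8% of all genes). These were ITGB1, ITGA3 and ITGAE. ITGB1 was at 9.87 to 10.25 in the KB10460 colonies and 10.53 to 10.62 in the KB10973 colonies, which did not overlap. The log2 difference was 0.55 (95% interval 0.29 to 0.82, limma adjusted p = 0.16), and without KB10460 colony 1 it was 0.68 and called (adjusted p = 0.025). The colonies of the donors did not overlap in 6 of the 33 genes, against 15.3% of all genes. For ITGA6 the log2 difference between donors had a 95% interval from -0.18 to 0.60.

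The partners of integrins and laminins were followed in 5 lists, against which 11.5% of all genes were called lower and 15.2% higher. Of 34 other integrin ligands, 18 (52.9%) fell in the iPSCs, 2 (5.88%) rose and 14 did not pass, with a median log2 fold change of -0.88. The collagen genes COL3A1 (-7.52, also one of the fibroblast markers) and COL6A3 (-7.36) and TGFBI (-5.94), a secreted adhesion protein, fell most, followed by the thrombospondin gene THBS2 (-5.69). FN1, which encodes fibronectin, the ligand of α5β1, was at 12.84 and 12.61 in the fibroblasts and 10.95 ± 0.51 (SD, n = 6) in the iPSCs (log2 fold change -1.78, SE 0.32, limma adjusted p = 0.0024). VCAM1, a ligand of α4β1, fell by 3.39. The genes that rose were SPP1, which encodes osteopontin (5.17), and CDH1, which encodes E-cadherin (4.83).

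Of 14 measured basement membrane genes, 4 (28.6%) were lower, 2 (14.3%) were higher and 8 were not called (median log2 fold change -0.13). The laminin linker gene NID1 (-1.85) and COL15A1 (-2.60) fell, while COL4A6, a collagen IV chain gene (1.94), and COL18A1 (1.43) rose. The main collagen IV genes were not called, with COL4A1 at 0.20 and COL4A2 at -0.30. COL4A1 was at 7.75 in the KB10460 and 9.23 in the KB10973 fibroblasts, and the iPSCs lay between them at 8.20 to 9.03. Another list held 16 genes of other laminin receptors and of proteins joined to them. Of these 11 were measured, and the receptor genes DAG1 and RPSA were not among them. The sarcoglycan genes SGCE (-1.98) and SGCB (-1.56) were lower (18.2%) and none was higher (median log2 fold change -0.21). Sarcoglycans belong to the joined proteins, and no gene of a laminin receptor itself was called in this list. BCAM, a receptor for laminin α5, had a log2 fold change of 0.23 and was not called.

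Of 41 genes of the cytoplasmic side of integrins, 10 (24.4%) were lower, 6 (14.6%) were higher and 25 were not called, with a median log2 fold change of -0.09. The tensin gene TNS1 (-5.12), the adaptor DAB2 (-4.11), the paxillin relative TGFB1I1 (-2.31) and the parvin gene PARVA (-2.29) fell most. TLN1, which encodes talin-1, fell by 1.24. The gene of talin-2, TLN2, had a log2 fold change of 0.49 (limma adjusted p = 0.033), under the 1.5-fold threshold. All its iPSC arrays lay above both fibroblast arrays. The higher genes included VCL, which encodes vinculin (1.04), and FERMT2, which encodes kindlin-2 (0.79). PTK2, which encodes focal adhesion kinase, had a log2 fold change of 0.04 (SE 0.11). Of 11 tetraspanins, membrane proteins that associate with integrins, 5 (45.5%) were lower, 2 (18.2%) were higher and 4 were not called (median log2 fold change -0.59). TSPAN7 (3.10) and TSPAN6 (2.19) rose, CD63 (-1.16) and TSPAN3 (-0.79) fell, and CD151, known as a partner of the laminin-binding integrins, was at -0.09 and not called. Each of these lists was counted at the same threshold. The shares called higher among the adaptors, the basement membrane genes and the tetraspanins were near the 15.2% of all genes.

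**Figure D5:**
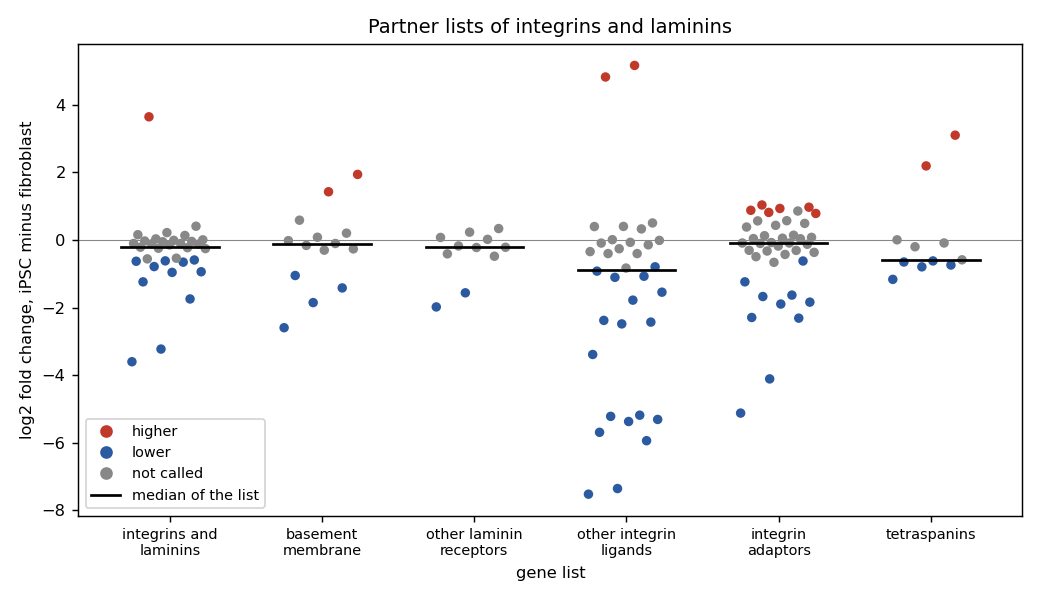
Log2 fold change between iPSCs and fibroblasts (vertical axis) of each measured gene in 6 lists (horizontal axis), coloured by its call, with the median of a list as a black line. The medians lie between -0.88 for the other integrin ligands and -0.09 for the integrin adaptors.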

How the data were processed

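The authors hybridized biotin-labelled RNA of the 8 cultures to one-colour Affymetrix arrays of human probe sets and deposited log2 expression values computed by RMA in WebArray (version not given in these sources). As RMA subtracts background and forces all arrays onto a shared distribution before it summarizes probe sets, a shift of most transcripts in a cell type cannot be seen. No column lacked a sample. With lmFit and eBayes of limma 3.58.1 (R 4.3.3), these values were compared between 6 iPSC and 2 fibroblast arrays without a block, between the iPSCs of the donors, and for the change between donors, over all 22277 probe sets with Benjamini-Hochberg adjustment. Tables were made in Python 3.11.15. In the RefSeq table of the orangutan assembly 33 of the 33 symbols were found. Of the probe sets, 19070 had 1 symbol, 1043 several and 2164 none. The members and lists were chosen with earlier results of these data known.

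Both fibroblast values and the lowest, median and highest iPSC values are given for called genes that changed by over 2 on the log2 scale. The same is given for 11 chains of the receptors and laminins on which pluripotent cells are grown. For other called genes and borderline ones, these values or only the range of the iPSCs are given. Those genes were chosen after their values were seen. From each partner list the 4 called genes with the largest change are named, and those named beyond these were chosen for their known role. Each donor gave both its fibroblasts and its colonies, which pairs them by animal. Across probe sets, the difference between donors in fibroblasts correlated with that in iPSCs at 0.02. Pairs of iPSC arrays had a correlation of 0.986 to 0.994 across probe sets, and no 2 arrays were identical. The number of arrays limits the precision. Alternatives changed the block, the moderation, the weighting, averaging and centring of arrays, the filter, the threshold, the adjustment and the choice of probe set, and left out each array. The false discovery rate used by the authors (SPLOSH) was not run. The scripts were tested on simulated data.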

Additional observations from a re-analysis of the deposited data

Results flagged for a closer look

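In 2 of the 33 genes, 1 iPSC colony lay apart from the other 5 by Dixon's gap test at the 95% level, which chance gives in about 5% of groups. For ITGAV this was KB10973 colony 3 at a log2 value of 6.55, against 5.58 to 5.82 in the others. For LAMA4 at the probe set with the highest mean it was KB10973 colony 1 at 3.99, against 3.42 to 3.61 in the others. The change of ITGB2 differed between the donors by 0.88 on the log2 scale in limma, with the KB10460 fibroblasts at 4.44 and the KB10973 fibroblasts at 3.68.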

How the results depend on the processing

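Over 19 alternatives, between 4 and 13 genes were called lower in the iPSCs in place of 11, and 1 or 2 were called higher. ITGA6, ITGA2, ITGA5 and ITGA8 kept direction and call in each alternative that tested them (ITGA8 did not pass the filter on low values). The genes called lower numbered 4 with a 2-fold threshold, 5 with the Benjamini-Yekutieli adjustment, and 7 with median centring and with colonies averaged within donor. With an array left out this count was 7 to 11, and the genes called higher were 1 to 2. With the donor as a replicate block 10 genes were lower, ITGAV being lost, and no other call among the 33 genes changed. Colony numbers do not pair colonies across animals. With them as a replicate block, none of the 33 genes was called in either direction between the iPSCs of the donors. That count of genes higher in KB10973 was 0 to 1 with a colony left out. For the difference of the change between donors the count of 1 was 0 with the filter on low values, which ITGB2 did not pass, and 0 to 1 with a colony left out. Of 401 values of single genes, 335 kept direction and side of the threshold, and 10 turned sign, and these came from 3 genes that were not called. ITGA3 went to 0.0008 with arrayWeights and 0.0146 with median centring, and ran from -0.145 to 0.0863 with an array left out. LAMA5 went to 0.0342 with median centring and ran from -0.259 to 0.240 with an array left out, and ITGAE ran from -0.0876 to 0.401, the ends of both ranges being those without the KB10460 or the KB10973 fibroblasts. Of the partner lists, the adaptors had 5 to 10 lower and 1 to 9 higher, the ligands 12 to 19 lower and 2 to 4 higher, and the tetraspanins 1 to 5 lower. The cause of these shifts was not tested.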
